A study of Mus musculus with 15 samples.

Results

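The genes described here are 9 cytokine receptor chains, followed by RNA sequencing through 3 states of mouse CD8+ T cells. They are Il7r, Il2ra, Il2rb, Il2rg, Il15ra, Il4ra, Il21r, Il6ra and Il6st, chosen by name as the common gamma-chain receptors and their IL-6 receptor relatives, out of 55536 annotated genes in the count table. All 9 had enough counts to be tested. OT-I mice carry a transgenic T cell receptor that recognises an ovalbumin peptide, and the labels give their background as C57BL/6J. Naive libraries (n = 5) came from CD8+ T cells of OT-I mice that were neither transferred nor stimulated. Ag libraries (n = 5) came from OT-I cells moved into C57BL/6J recipients that were given antigen, which the study's methods describe as the ovalbumin peptide with a control rat antibody. Ag+Costim libraries (n = 5) came from recipients given the same antigen with agonist antibodies to OX40 and 41BB, the costimulatory receptors CD134 and CD137. Transferred cells were sorted from spleen and lymph nodes at day 4 per the labels, whereas the methods give a slightly earlier time. According to the methods the OT-I donors lacked Rag1 or Rag2, so that their own T cells carried the transgenic receptor, whereas the recipients had a full immune system.

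Receptors of this family have no enzyme of their own. A private chain binds the cytokine, a shared chain joins it, and Janus kinases carried on the chain tails then activate STAT transcription factors. Il2rg encodes the common gamma chain, which is shared by the receptors for IL-2, IL-4, IL-7, IL-9, IL-15 and IL-21, and Il6st encodes gp130, which plays the same part for IL-6 and its relatives. In CD8+ T cells, IL-7 keeps resting cells alive, IL-2 and IL-15 drive division, effector functions and memory, and IL-6 and IL-21 tune differentiation.

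Library totals ranged from 4865952 to 25280667 counts with a median of 14967616, and member genes had between 30 and 46989 counts in a library. Ag 3 was the shallowest library, with 16.9% of its reads counted to genes. Lane 2 carried the Ag group together with Ag+Costim 1, 2 and 3, while lane 3 carried Ag+Costim 4, Ag+Costim 5 and the Naive group, so lane and group cannot be told apart between Ag and Naive. The 6 CD8 T cell markers summed to between 3354 and 7616 CPM (counts per 1000000 counts of the library) in the 15 libraries, and each of the 6 had counts in every library. Their sum was 4281 to 7616 CPM in Naive, 3354 to 6575 CPM in Ag and 3369 to 4302 CPM in Ag+Costim, and 4 of the 6 were lower in Ag+Costim than in Naive. Markers of other cell types were present at lower levels. The 8 B cell markers summed to 188 CPM in Ag 1, 423 CPM in Ag 3 and 247 CPM in Ag 4, and to between 25.9 and 47.3 CPM in the other 12 libraries. The 10 myeloid markers summed to 606 CPM in Naive 5 and to between 14.0 and 161 CPM elsewhere, and the 6 erythroid markers reached 912 CPM in Ag 3. The 4 markers of CD4 and regulatory T cells summed to at most 36.8 CPM (Ag 4) and the 4 NK cell markers to at most 79.3 CPM (Naive 2). Of the tested B cell markers, 5 of 7 were higher in Ag than in Naive. No marker list had a gene at 0 across a whole group. In bulk RNA, more cells of a type and more RNA per cell cannot be told apart. The part of these cells in the receptor values below was not tested.

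Il2rg was the most abundant receptor gene in each group. Divided by transcript length and scaled to the same total in each library (transcripts per 1000000, TPM), it stood at 1362 ± 368 (SD, n = 5) for Naive, 983 ± 222 for Ag and 911 ± 47.5 for Ag+Costim. These levels did not overlap those of the next gene in any group. The next gene changed between groups. In Naive it was Il7r, the IL-7 receptor alpha chain, at 309 ± 115 TPM, ahead of Il2rb, the beta chain shared by the IL-2 and IL-15 receptors, at 215 ± 90.3 TPM. In Ag and Ag+Costim it was Il2rb, at 325 ± 33.8 and 447 ± 25.0 TPM, with Il21r following at 90.3 ± 22.0 and 87.9 ± 12.1 TPM and Il7r only after that, at 69.1 ± 43.2 and 37.1 ± 5.34 TPM. Naive Il7r and Il2rb overlapped, as did Il21r and Il7r in Ag, so only the Ag+Costim order of Il2rg, Il2rb, Il21r and Il7r was free of overlap between neighbours.

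The remaining chains were scarcer. Il4ra, Il6ra and Il6st had mean levels of 62.1, 47.6 and 46.7 TPM in Naive, where these 3 genes overlapped. In Ag+Costim they stood at 16.3, 2.62 and 10.5 TPM. Il15ra, the chain that presents IL-15, stayed between 11.4 and 16.4 TPM in the 3 group means. Il2ra, the high-affinity alpha chain of the IL-2 receptor known as CD25, was the lowest of the 9 in Naive at 5.98 ± 4.75 TPM and in Ag at 7.01 ± 5.43 TPM, and the fifth in Ag+Costim at 18.8 ± 7.77 TPM. The deposited FPKM table, which lists only part of the transcripts for 6 of these genes, put 7, 4 and 9 of the 9 genes at the same place in Naive, Ag and Ag+Costim.

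**Figure D1:**
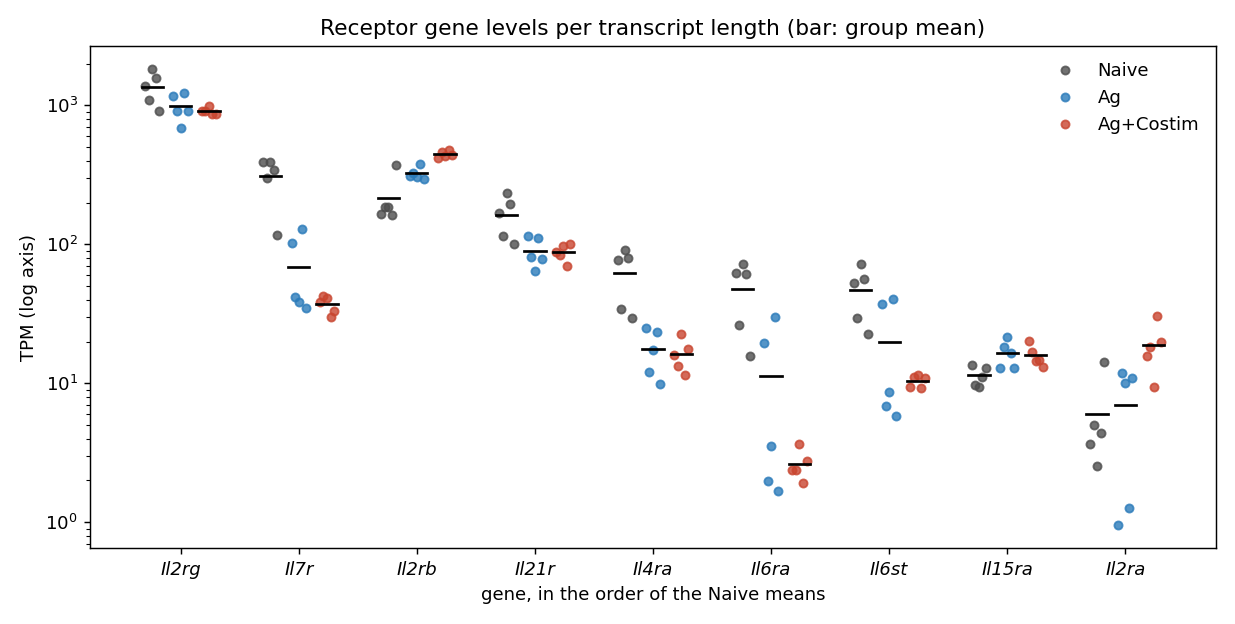
Level of each receptor gene in TPM on a log axis, with 1 point per library and a bar at the group mean (n = 5 per group), in the order of the Naive means. Il2rg is on top in each group, Il2rb and Il2ra are highest in Ag+Costim, and Il6ra falls from a mean of 47.6 TPM in Naive to 2.62 TPM in Ag+Costim.

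The IL-7 receptor alpha chain was the member with the steepest fall from Naive to Ag. In the 5 Naive libraries Il7r stood at 783, 644, 779, 712 and 235 CPM. In the Ag libraries it stood at 221, 95.3, 84.5, 273 and 86.3 CPM, and in Ag+Costim at 80.8, 93.8, 89.0, 66.6 and 67.6 CPM. Naive 5 was low and lay inside the Ag range, whereas Naive 1 to 4 were all above every Ag library. Il7r fell 3.99-fold from Naive to Ag (log2 fold change -2.0 ± 0.34 SE, edgeR quasi-likelihood test, FDR = 0.00874) and 7.08-fold from Naive to Ag+Costim (-2.82 ± 0.35, FDR = 0.000954). The further difference between Ag+Costim and Ag did not pass the test (-0.83 ± 0.33, FDR = 0.133). Ag 1 and Ag 4, the Ag libraries with the highest Il7r, and Ag 3, with the lowest, were the 3 libraries with raised B cell markers, whose part in these values was not tested.

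Il7r lies on chromosome 15 at 9505788 to 9530176 on the minus strand (GENCODE M21, GRCm38). It was the only member whose RefSeq promoter, taken as 250 bases before to 50 bases after the start site, held the STAT dimer motif TTCNNNGAA, a palindrome that reads the same on either strand. It is shown because Il7r carries the steepest change from Naive to Ag. The motif starts at position -142 from the start site at chr15:9530002-9530026 (minus strand, GRCm38.p6), with the motif in capitals:
Il7r: tcaggagcTTCAGGGAAtaccaaga
Of 32851 promoter entries in the table, 8.30% held the motif. The 9 entries of 8 members were searched, 1 of them with a match, and Il2rb had no entry.

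Of the IL-2 and IL-15 receptor chains, Il2rb was higher in Ag than in Naive. It lies on chromosome 15 at 78479256 to 78495271 (minus strand), and stood at 461, 537, 479, 438 and 1006 CPM in Naive, 896, 959, 911, 1050 and 912 CPM in Ag, and 1141, 1258, 1175, 1296 and 1185 CPM in Ag+Costim. Each Ag+Costim library was above each Ag library, and each Ag library above Naive 1 to 4, with Naive 5 inside the Ag range. Il2rb was 1.71-fold higher in Ag than in Naive (log2 fold change 0.77 ± 0.21, FDR = 0.0452) and 2.27-fold higher in Ag+Costim than in Naive (1.19 ± 0.22, FDR = 0.00334). Between Ag+Costim and Ag the difference of 0.41 ± 0.21 did not pass (FDR = 0.231), although the 2 groups did not overlap. Of all genes tested, 7.04% were likewise free of overlap in that comparison, 4.84% with Ag+Costim higher.

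Il2ra was scarce and uneven. On chromosome 2 at 11642807 to 11693193 (plus strand), it stood at 8.51, 13.1, 5.93, 8.53 and 36.6 CPM in Naive, 2.86, 33.4, 26.9, 3.67 and 33.9 CPM in Ag, and 42.0, 48.5, 25.1, 83.1 and 51.2 CPM in Ag+Costim. The Ag libraries fell apart into Ag 1 and Ag 4, below every Naive library, and Ag 2, Ag 3 and Ag 5, above Naive 1 to 4. Il2ra was 3.74-fold higher in Ag+Costim than in Naive (1.9 ± 0.72, FDR = 0.0436). Neither the difference between Ag and Naive (0.61 ± 0.70, FDR = 0.561) nor that between Ag+Costim and Ag (1.29 ± 0.70, FDR = 0.251) passed, and their 95% intervals, -0.89 to 2.11 and -0.21 to 2.80, left room for changes in either direction.

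Il15ra, on chromosome 2 at 11705290 to 11734317 (plus strand), was low in each group. Its mean was 11.6 ± 2.08 CPM in Naive, 15.4 ± 1.42 CPM in Ag and 15.5 ± 3.15 CPM in Ag+Costim. It was 1.48-fold higher in Ag+Costim than in Naive (0.57 ± 0.17, FDR = 0.0193), with overlapping libraries, and the differences of 0.51 between Ag and Naive (FDR = 0.0817) and 0.06 between Ag+Costim and Ag (FDR = 0.827) did not pass. Il2rg, on chromosome X at 101264378 to 101268255 (minus strand), ranged from 959 to 1859 CPM in Naive, 795 to 1325 CPM in Ag and 914 to 1047 CPM in Ag+Costim. This chain was lower in Ag+Costim than in Naive by 1.33-fold (-0.41 ± 0.15, FDR = 0.0423), the smallest called difference of the 9 genes. It had differences of -0.28 between Ag and Naive (FDR = 0.236) and -0.13 between Ag+Costim and Ag (FDR = 0.584), neither past the threshold.

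**Figure D2:**
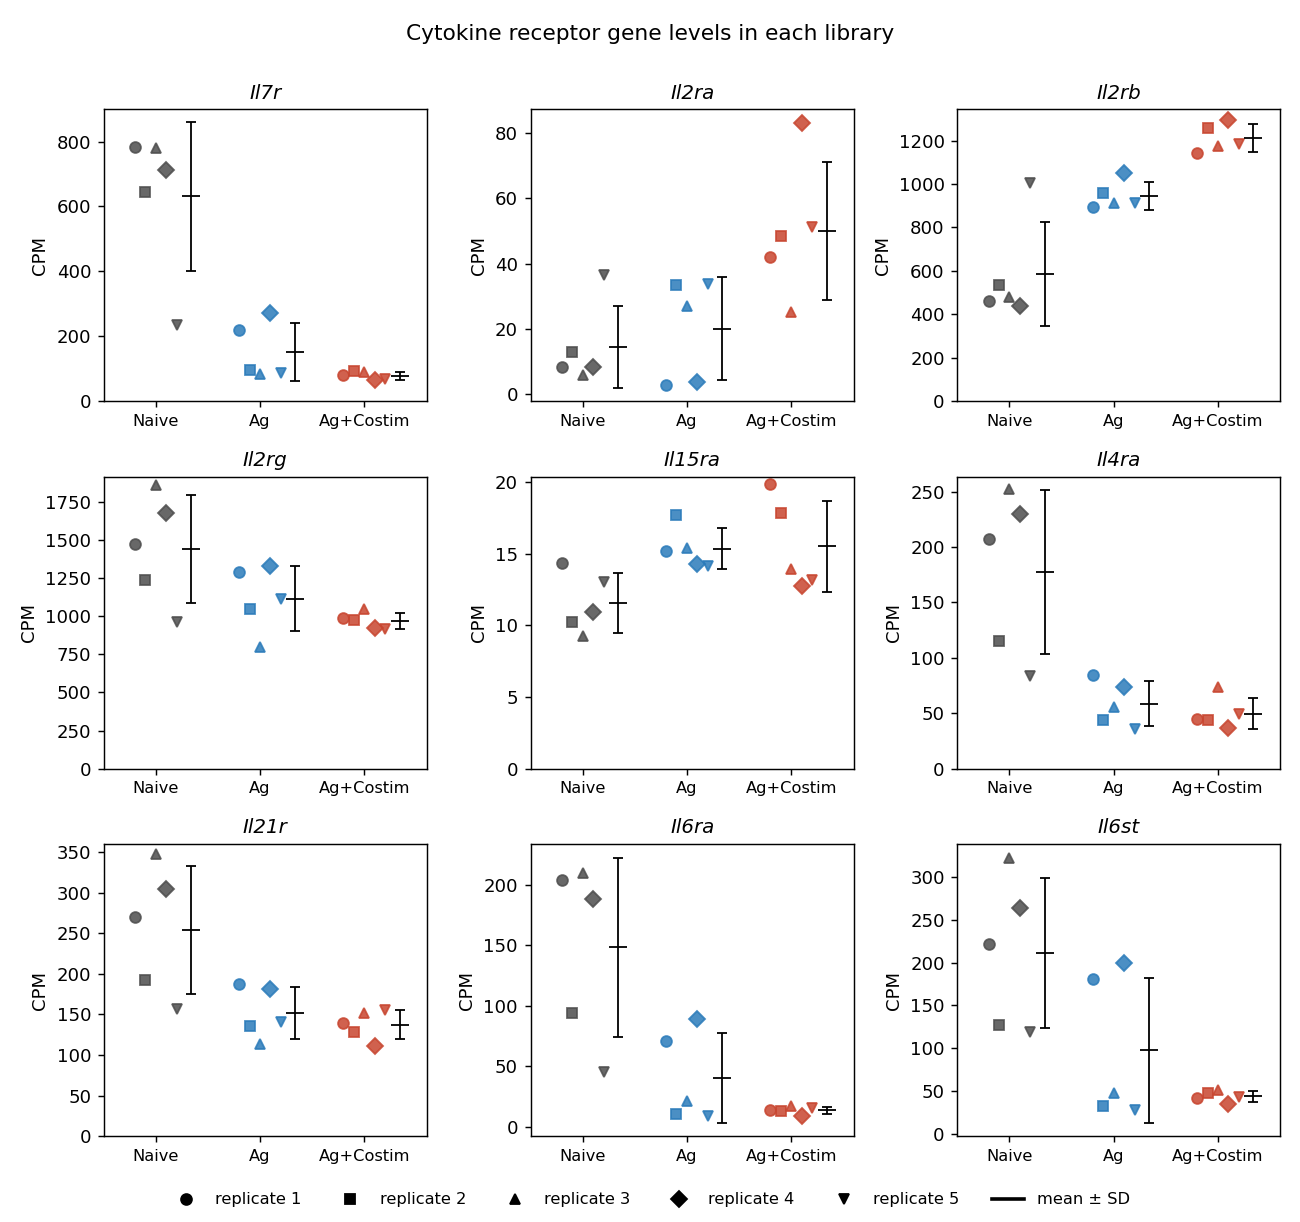
Level of each receptor gene in CPM on a linear axis that includes 0, by group, with 1 symbol per library (the shape gives the replicate number) and a black bar for the mean ± SD (n = 5). Naive 5 sits apart from Naive 1 to 4 for Il7r, Il2ra and Il2rb, and Ag 1 and Ag 4 sit apart from the other Ag libraries for Il7r, Il2ra, Il6ra and Il6st.

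The alpha chains for IL-4 and IL-21 were lower in Ag than in Naive. Il4ra, on chromosome 7 at 125552120 to 125579474 (plus strand), stood at 207, 115, 252, 230 and 83.6 CPM in Naive, 84.5, 43.7, 55.5, 74.2 and 36.3 CPM in Ag, and 45.3, 44.1, 73.6, 36.7 and 49.3 CPM in Ag+Costim. Only Naive 5 reached down to the highest Ag library. Il4ra was 2.86-fold lower in Ag than in Naive (-1.52 ± 0.29, FDR = 0.0126) and 3.18-fold lower in Ag+Costim than in Naive (-1.67 ± 0.29, FDR = 0.00268). Il21r, on chromosome 7 at 125603429 to 125633570 (plus strand), ranged from 157 to 348 CPM in Naive, 113 to 188 CPM in Ag and 111 to 156 CPM in Ag+Costim. It was 1.57-fold lower in Ag (-0.65 ± 0.18, FDR = 0.0467) and 1.66-fold lower in Ag+Costim (-0.73 ± 0.18, FDR = 0.0108) than in Naive. Between Ag+Costim and Ag, the difference was -0.15 for Il4ra (95% interval -0.75 to 0.45, FDR = 0.747) and -0.07 for Il21r (-0.46 to 0.31, FDR = 0.809).

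Both genes of the IL-6 receptor pair were lower in Ag+Costim than in Naive. Il6ra, the chain that binds IL-6, lies on chromosome 3 at 89864059 to 89913196 (minus strand). In CPM it stood at 204, 94.4, 210, 188 and 44.8 CPM in Naive, 71.0, 10.9, 21.6, 89.5 and 8.72 CPM in Ag, and 13.5, 13.4, 16.8, 9.21 and 15.2 CPM in Ag+Costim. Here Ag 1 and Ag 4 were within the Naive range, Ag 2 and Ag 5 were within or just below the Ag+Costim range, and Ag 3 lay between. Il6st, on chromosome 13 at 112464070 to 112510086 (plus strand), stood at 222, 128, 323, 264 and 119 CPM in Naive, 181, 32.4, 46.9, 199 and 27.5 CPM in Ag, and 41.6, 47.1, 51.4, 34.7 and 42.8 CPM in Ag+Costim. The same split appeared, with Ag 1 and Ag 4 again at Naive levels. Against Naive, Ag+Costim was 9.69-fold lower for Il6ra (-3.28 ± 0.59, FDR = 0.00327) and 4.33-fold lower for Il6st (-2.12 ± 0.48, FDR = 0.00738).

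In the edgeR test, no IL-6 receptor difference that involved Ag passed. Ag against Naive gave -1.85 ± 0.56 for Il6ra (FDR = 0.0598) and -1.10 ± 0.47 for Il6st (FDR = 0.143), and Ag+Costim against Ag gave -1.42 ± 0.56 (FDR = 0.130) and -1.02 ± 0.47 (FDR = 0.182). DESeq2 called Il6ra in Ag against Naive (-1.89, adjusted p = 0.00653), where it called 17.9% of the genes it tested. In edgeR, Il6ra passed there without Ag 1, Ag 4 or Naive 5 (lowest FDR = 0.0192, without Naive 5), and Il6st without Ag 4 (FDR = 0.0488). An antisense gene on the other strand of Il6ra, Gm42809, had 732 counts over all libraries against 15941 for Il6ra, and a kit that does not mark strand cannot tell their shared reads apart.

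**Figure D3:**
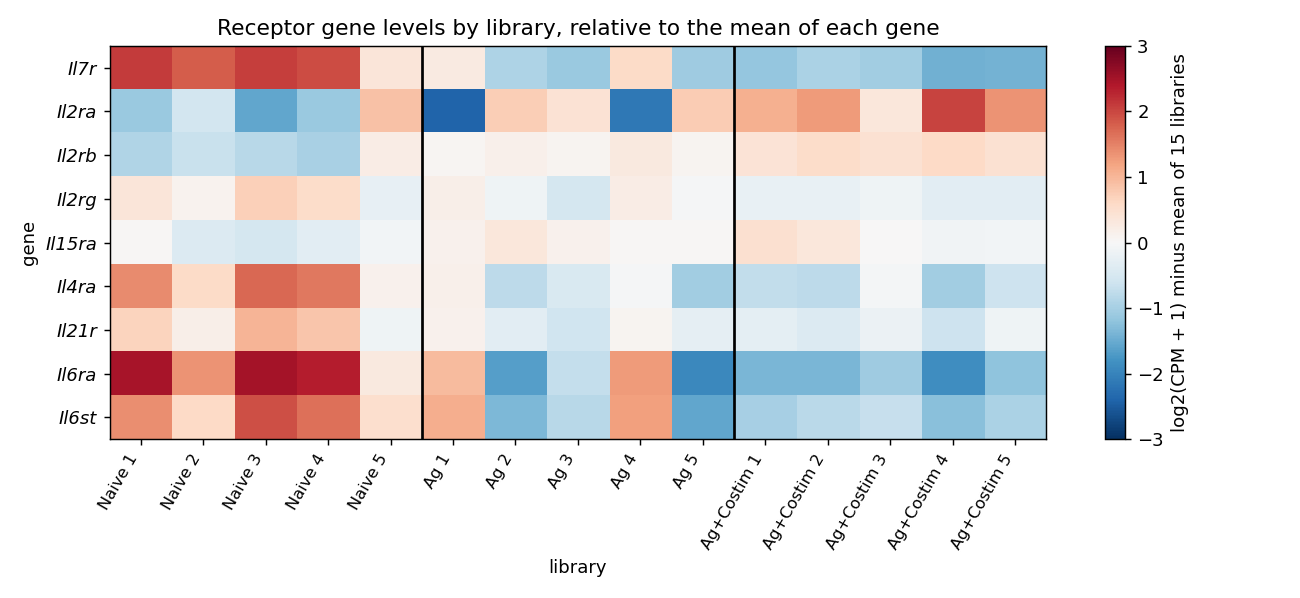
Colour gives log2(CPM + 1) of each receptor gene in each of the 15 libraries minus the mean of that gene over all libraries, with black lines between groups. Naive 5 is closer in colour to the Ag libraries than Naive 1 to 4 are, and Ag 1 and Ag 4 differ from Ag 2, Ag 3 and Ag 5. The 5 Ag+Costim libraries differ most for Il2ra (25.1 to 83.1 CPM).

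The comparison of Ag with Naive sets transferred, antigen-primed cells against cells that were neither transferred nor stimulated. Antigen, the control antibody, transfer into a recipient and lane cannot be told apart in it. Of the 9 genes, 4 passed an FDR of 0.05, 1 higher (Il2rb) and 3 lower (Il7r, Il4ra and Il21r), or 4 of 9 beside 6.71% of all genes tested (3.05% higher and 3.66% lower). None of the 9 was free of overlap between the groups, beside 3.63% of all genes. The median log2 fold change of the 9 genes was -0.65, and that of all genes tested was 0.08. The Il7r and Il4ra calls were kept whichever single library was left out. All 4 calls were lost in a fit of only the 10 libraries of the comparison. The Il2rb call was lost without any of Ag 2, Ag 3, Ag 4, Ag 5 or Naive 1 to 4 and the Il21r call without Ag 2, Ag 3, Ag 5, Naive 1, Naive 3 or Naive 4. The count of calls was 2 without Ag 2, Ag 3, Ag 5, Naive 1, Naive 3 or Naive 4, where 2.84%, 6.99%, 4.24%, 1.42%, 1.48% and 1.52% of all genes passed. It was 3 without Naive 2 (5.53% of all genes), 5 without Ag 1 or Ag 4 (10.4% and 11%) and 6 without Naive 5 (21.5%). Without Naive 5, Il15ra and Il6ra joined the 4 calls. No fit within 1 lane was possible, and none of the 9 passed with lane as a term, nor did any other gene (0%), where Il7r had a log2 fold change of -2.36 (FDR = 0.541).

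Comparing Ag+Costim with Ag asks what costimulation added. None of the 9 genes passed, beside 0.0346% of all genes tested. At an unadjusted p under 0.05 there were 3 (Il7r, Il6ra and Il6st, all lower in Ag+Costim) beside 26.8% of all genes, and DESeq2 called 1, Il6ra, lower in Ag+Costim (log2 fold change -1.43, adjusted p = 0.0457), beside 18.4% of the genes it tested (15.8% lower). Il2rb was the only gene of the 9 whose groups did not overlap. The median log2 fold change of the 9 genes was -0.13 and that of all genes -0.10. Within lane 2, where 5 Ag and 3 Ag+Costim libraries can be compared, the difference was -0.68 for Il7r, 0.92 for Il2ra, 0.39 for Il2rb, -1.32 for Il6ra and -0.91 for Il6st, none of them past the threshold, beside 0% of all genes. Without Ag 5, Il6ra passed (-1.67, FDR = 0.0418), beside 19.7% of all genes.

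For Ag+Costim against Naive all 9 genes passed, 3 higher (Il2ra, Il2rb and Il15ra) and 6 lower (Il7r, Il2rg, Il4ra, Il21r, Il6ra and Il6st), beside 44.7% of all genes tested (21% higher and 23.6% lower). The groups did not overlap for Il2rb, which was higher, nor for Il7r, Il4ra, Il21r, Il6ra and Il6st, which were lower, beside 18.3% and 27.3% of all genes in these directions. The Il21r libraries nearly met, with a highest Ag+Costim value of 156 CPM and a lowest Naive value of 157 CPM. The median log2 fold change of the 9 genes was -0.73 and that of all genes -0.08. Within lane 3, which held 2 Ag+Costim and 5 Naive libraries, 6 genes passed beside 34.7% of all genes, with -3.06 for Il7r, 2.36 for Il2ra, 1.24 for Il2rb, -1.88 for Il4ra, -3.44 for Il6ra and -2.28 for Il6st. Il2rg (-0.48), Il15ra (0.33) and Il21r (-0.76) kept their sign there without passing. The count was 6 without Ag+Costim 1, Ag+Costim 4 or Naive 4 (31.3%, 29.6% and 21.6% of all genes), and the Il7r, Il2rb, Il4ra, Il6ra and Il6st calls were kept whichever library was left out. Without Ag+Costim 1, 2, 4 or 5 or Naive 1, 2, 3 or 4 the Il2ra call was lost (lowest log2 fold change 1.71), and the Il2rg call was lost without any Ag+Costim library or Naive 1, 3 or 4 (smallest difference -0.29). Il15ra lost its call without Ag+Costim 1 or Naive 4, where its log2 fold change was at least 0.47, and Il21r without Ag+Costim 4, at -0.58.

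**Figure D4:**
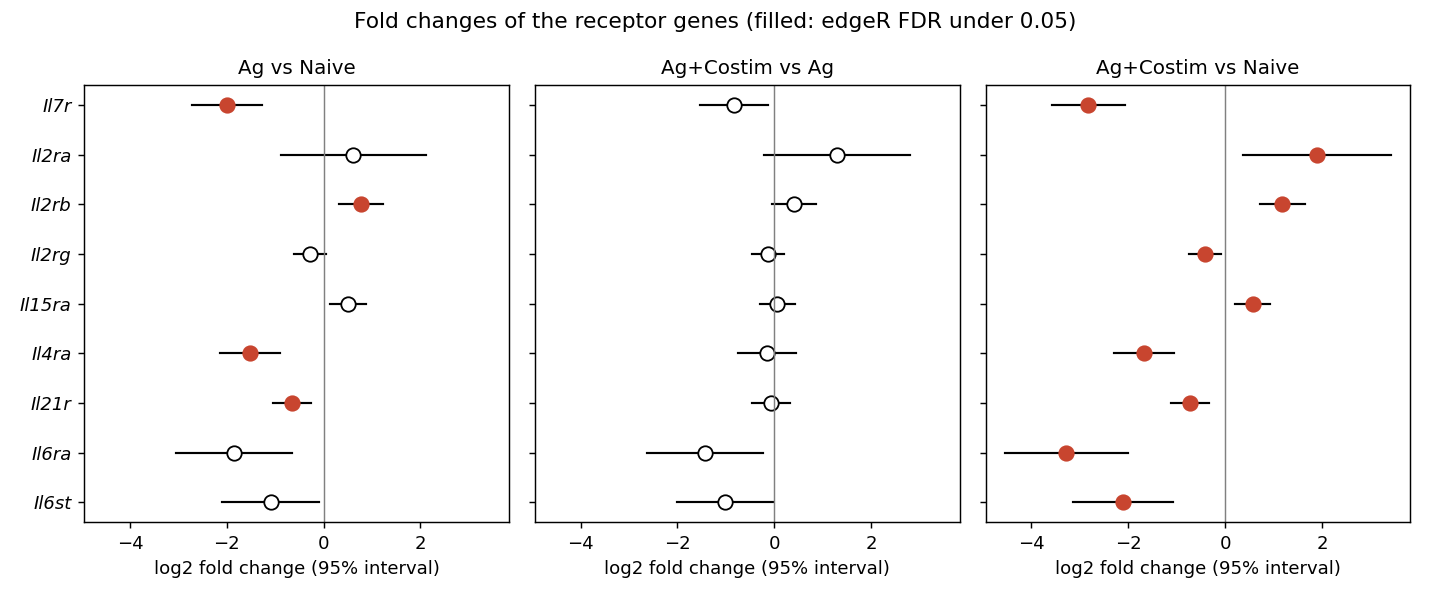
Log2 fold change of each receptor gene in 3 comparisons, with its 95% interval from the edgeR fit as a line. Filled points are genes with an FDR under 0.05, 4 in Ag vs Naive, 9 in Ag+Costim vs Naive and none in Ag+Costim vs Ag.

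Ratios between receptor genes, taken within each library on the TPM scale, do not depend on the scaling between libraries. The ratio of Il7r to Il2rb was 1.70 ± 0.83 for Naive, 0.207 ± 0.114 for Ag and 0.0834 ± 0.0143 for Ag+Costim. It was lowest in Naive 5 among the Naive libraries (0.309) and highest in Ag 4 among the Ag libraries (0.336), and the Ag+Costim maximum of 0.0956 was below the Ag minimum of 0.119. Il2rb relative to Il2rg averaged 0.181 ± 0.131, 0.342 ± 0.0686 and 0.492 ± 0.0454 in the same order, although the Ag maximum of 0.449 exceeded the Ag+Costim minimum of 0.439. For Il6ra relative to Il6st, the ratio was 0.970 ± 0.189 for Naive, 0.452 ± 0.194 for Ag and 0.249 ± 0.0437 for Ag+Costim. Its Ag+Costim maximum of 0.318 was below the Naive minimum of 0.693. Against the shared gamma chain, Il4ra had a ratio of 0.0437 ± 0.0114 for Naive, 0.0180 ± 0.00594 for Ag and 0.0178 ± 0.00407 for Ag+Costim, and Il21r had 0.118 ± 0.0100, 0.0918 ± 0.00479 and 0.0965 ± 0.0125. These ratios are a description with no test of their own.

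Il2ra, Il2rb, Il2rg and Il21r were read mainly as 1 transcript in all 3 groups. The leading transcript held a mean share of 0.938 to 0.984 for Il2ra-201, 0.955 to 0.985 for Il2rg-201 and 0.821 to 0.856 for Il21r-201. Transcript shares of a gene's counts were tested for 8 of the 9 genes, since Il2rb was almost wholly 1 transcript, Il2rb-201. Only Il4ra was called. Il4ra-205, annotated as a target of nonsense-mediated decay with 230 coding residues against 810 in the main transcript Il4ra-201, held 0.462, 0, 0.274, 0.309 and 0.291 of the gene's counts in Naive. It held 0, 0, 0, 0.00412 and 0.00306 in Ag, and 0.449, 0, 0.00363, 0 and 0.378 in Ag+Costim. If every count of the gene could tell its transcripts apart, a zero in Ag 1, Ag 2 and Ag 3 would allow a share of up to 0.00339, 0.00446 and 0.0111. The true limits are wider, since only part of the reads can do so. The mean share was lower in Ag than in Naive (0.00144 against 0.267; edgeR diffSpliceDGE, gene FDR = 0.00552) and higher in Ag+Costim than in Ag (0.166 against 0.00144, gene FDR = 0.0160).

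These calls stand beside 0.547% and 0.933% of the genes tested for shares. Only 2 of the 5 Ag+Costim libraries carried Il4ra-205 above a share of 0.00363, and the call in that comparison was lost without Ag 1 or without Ag+Costim 1. In Ag+Costim against Naive no member was called, beside 1.01% of genes. Estimated counts of single transcripts rest on the reads that tell them apart, and Il4ra-205 has 114 bases that Il4ra-201 lacks.

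Other shares differed without passing the test. Il6ra-201 and Il6ra-202 encode near-equal proteins of 460 and 459 residues and differ by their 3' untranslated regions of 1840 and 7105 bases. Only 3 bases of Il6ra-201 are absent from Il6ra-202, so few reads can be its own. The share of the shorter, Il6ra-201, was 0.502 ± 0.0635 for Naive, 0.233 ± 0.244 for Ag and 0.0480 ± 0.0666 for Ag+Costim (Ag+Costim vs Naive gene FDR = 0.263). It was high in Ag 1 (0.397) and Ag 4 (0.574), the libraries with the most Il6ra. For Il7r, Il7r-201 with 459 residues held 0.118 ± 0.0153 for Naive, 0.399 ± 0.102 for Ag and 0.286 ± 0.229 for Ag+Costim (Ag vs Naive gene FDR = 0.529), and most other counts were assigned to Il7r-204, whose annotated reading frame is 286 residues long. The Naive and Ag shares of Il7r-201 did not overlap, but only 24 bases tell it from Il7r-204. For Il6st, Il6st-201 and Il6st-203 share the same 917 residues, and the shorter Il6st-201 held 0.266, 0.205 and 0.445 on average in Naive, Ag and Ag+Costim (Ag+Costim vs Ag gene FDR = 1). Only 23 bases of Il6st-201 are absent from Il6st-203.

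Il15ra had the most transcripts, 18, and its low counts were spread over them. The leading one, Il15ra-201, had mean shares of 0.377 for Naive, 0.264 for Ag and 0.433 for Ag+Costim. Il15ra-205 and Il15ra-210 were at 0 in all 5 Naive libraries. There 0 of 909 counts would allow a share of up to 0.00330 if every count could tell the transcripts apart, and more otherwise. Il15ra-205 and Il15ra-210 had mean shares of 0.0604 and 0.115 in Ag and 0.111 and 0.0988 in Ag+Costim. The Ag mean of Il15ra-205 came from Ag 5 alone (0.302), and the other 4 Ag libraries were at 0. The gene FDR was 0.0693 in Ag vs Naive and 0.0541 in Ag+Costim vs Naive, neither past the threshold, and Il15ra was called in the first of these without Ag 5 and in the other without Ag+Costim 1.

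**Figure D5:**
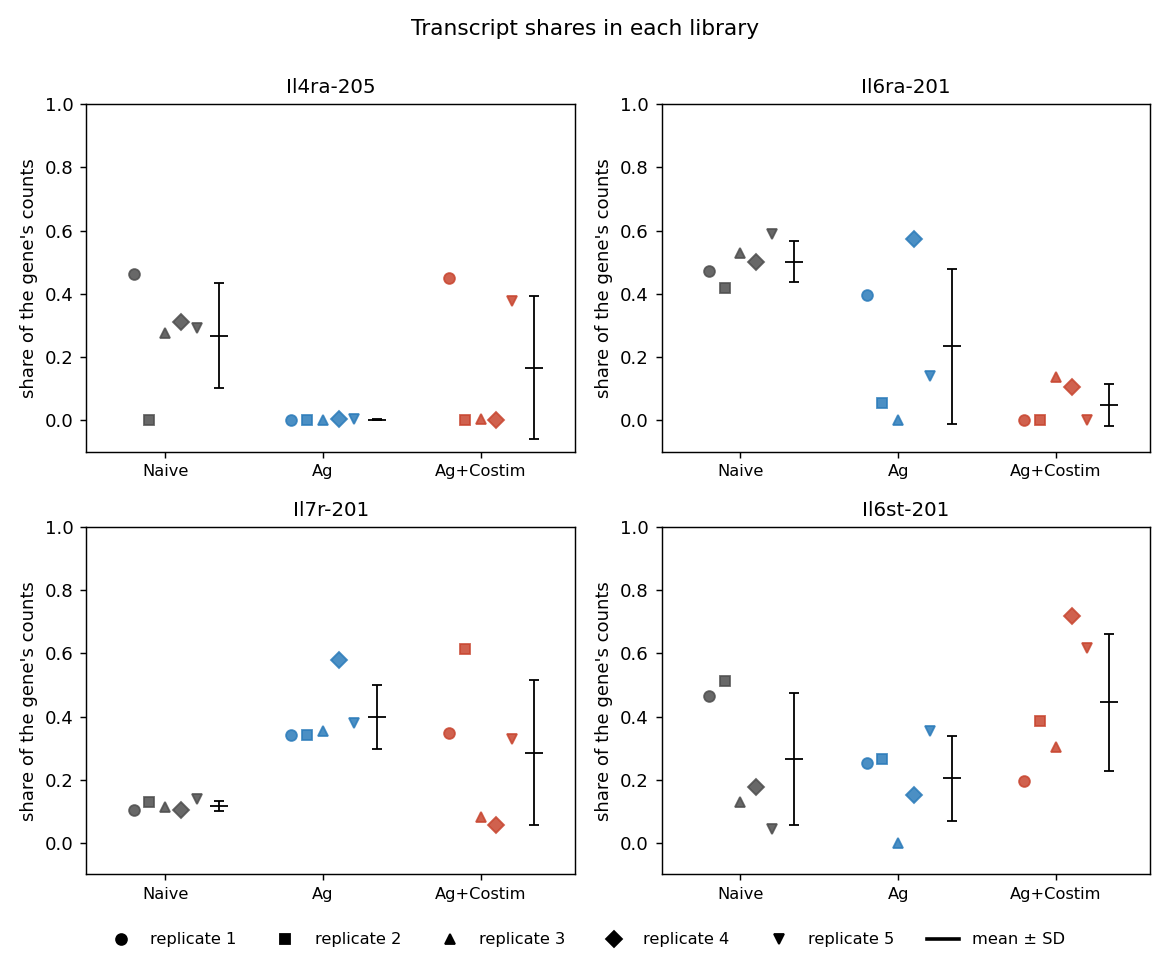
Share of the gene's counts, from 0 to 1, held by 4 transcripts in each library, with the mean ± SD (n = 5) in black. Il4ra-205 is near 0 in all Ag libraries, Il6ra-201 lies between 0.417 and 0.587 in Naive and at or below 0.135 in Ag+Costim, and Il7r-201 lies between 0.103 and 0.138 in Naive and at 0.341 or above in Ag.

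The other genes of the pathway were taken from 6 lists of ligands, other receptor chains, kinases and STATs, feedback inhibitors, downstream genes and transcription factors known to act on Il7r or Il2rb. None of their genes passed in Ag+Costim vs Ag (edgeR), where 11 of the 59 tested had an unadjusted p under 0.05, beside the 26.8% of all genes given above, and DESeq2 called 9 of the 73 listed, beside 18.4%. The counts of the lists that follow stand beside 6.71% of all genes called in Ag vs Naive, and 44.7% in Ag+Costim vs Naive (23.6% lower). Among the 14 ligands, 4 were tested (Il2, Il15, Ebi3 and Osm) and none passed in any comparison. Il2 stood at 6.36 CPM in Ag, 5.86 CPM in Ag+Costim and 4.17 CPM in Naive on average.

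Among the 11 kinases and STATs, none passed in Ag vs Naive, and 2 were higher and 1 lower in Ag+Costim vs Naive. Jak1, a Janus kinase, had means of 1487 CPM in Naive, 1007 CPM in Ag and 927 CPM in Ag+Costim (Ag+Costim vs Naive -0.53 ± 0.14, FDR = 0.0126). The Jak1 call was lost without Ag+Costim 4 (-0.37, FDR = 0.0950). Jak3, which binds the gamma chain, gave 0.29 ± 0.19 in that comparison (FDR = 0.209). Stat5a and Stat5b, the main STATs of IL-2 and IL-7, gave 0.28 ± 0.10 (FDR = 0.0387) and -0.05 ± 0.15 (FDR = 0.774), and Stat4 gave 0.27 ± 0.09 (FDR = 0.0236). Stat5a lost its call without Ag+Costim 1, 2, 3 or 5 or Naive 1, 2 or 4 (highest FDR = 0.0954), and Stat4 without Ag+Costim 2 or 3 or Naive 1 or 4 (highest FDR = 0.0643). Scaled by library totals alone, Stat5a gave 0.13 (FDR = 0.312) and Stat4 0.12 (FDR = 0.188), and neither passed.

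Of 12 feedback inhibitors, 3 were lower in Ag than in Naive and 5 lower in Ag+Costim than in Naive, and none was higher. Socs3, which blocks gp130 signalling, stood at 107, 61.2, 132, 110 and 33.6 CPM in Naive, at 28.4, 8.43, 11.9, 41.6 and 8.33 CPM in Ag, and at 14.5, 18.6, 15.8, 8.79 and 8.26 CPM in Ag+Costim. It was lower in Ag (-2.12 ± 0.45, FDR = 0.0176) and in Ag+Costim (-2.59 ± 0.46, FDR = 0.00297) than in Naive. Without Naive 1, Naive 3 or Naive 4 the call in Ag was lost (highest FDR = 0.0532). Socs1 was lower by the same tests (-1.18, FDR = 0.0284 and -1.53, FDR = 0.00376), the first call lost without Ag 2, Ag 5, Naive 1, Naive 3 or Naive 4 (highest FDR = 0.0860). Socs5 was lower in Ag+Costim (-2.36, FDR = 0.00759), as was Sh2b3, an adaptor that restrains JAK signalling (-0.75, FDR = 0.0327). The Sh2b3 call was lost without Ag+Costim 1, 2, 4 or 5 or Naive 1, 3 or 4 (highest FDR = 0.141). Pias1 averaged 174 CPM in Naive, 112 CPM in Ag and 111 CPM in Ag+Costim (-0.55, FDR = 0.0476 and -0.49, FDR = 0.0230). Its call in Ag was lost without Ag 2, 3 or 5 or Naive 1, 2, 3 or 4 (highest FDR = 0.171), and that in Ag+Costim without Ag+Costim 4 or Naive 1, 3 or 4 (highest FDR = 0.141). Cish, a target and inhibitor of STAT5, averaged 5.40 CPM in Naive, 2.04 CPM in Ag and 2.0 CPM in Ag+Costim and did not pass (FDR = 0.170 and 0.105).

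Downstream genes of IL-2 and IL-7 went both ways. Of 12, 3 were lower in Ag than in Naive, and 3 were higher and 6 lower in Ag+Costim than in Naive. Bcl2, a survival gene known to be raised by IL-7, averaged 317 ± 134 CPM in Naive, 73.8 ± 48.4 CPM in Ag and 34.5 ± 10.1 CPM in Ag+Costim, a fall in Ag (-2.06 ± 0.41, FDR = 0.0145) and in Ag+Costim (-3.04 ± 0.43, FDR = 0.00130). Bcl2l1, the related survival gene, was higher in Ag+Costim (0.89 ± 0.21, FDR = 0.00855), as was Ccnd3, a cyclin of the early cell cycle (0.55 ± 0.20, FDR = 0.0413). Without any single Ag+Costim library or Naive 1, 2, 3 or 4 the Ccnd3 call was lost (highest FDR = 0.0932), and with library totals alone it gave 0.40 and did not pass. Myc, a driver of growth, averaged 136 CPM in Naive and 61.7 CPM in Ag (-1.04 ± 0.17, FDR = 0.00781). Of the Pim kinases, Pim1 was lower in Ag (-1.28, FDR = 0.0362), a call lost without Ag 5 or Naive 1, 2, 3 or 4 (highest FDR = 0.0984), and Pim2 was lower in Ag+Costim (-1.28, FDR = 0.00892). Pim1 was also lower in Ag+Costim than in Naive (-0.91, FDR = 0.0379), as was Myc (-0.52, FDR = 0.0264). Fits without single libraries are not given for these last calls.

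Of 11 transcription factors tested that are known to act on Il7r or Il2rb, 1 was lower in Ag (Klf2, -0.87 ± 0.18, FDR = 0.0151) and 1 was higher and 6 lower in Ag+Costim than in Naive. Without Naive 1, Klf2 missed the threshold in Ag (FDR = 0.0507). It was lower in Ag+Costim too (-0.91 ± 0.18, FDR = 0.00403). Foxo1, an activator of Il7r in resting cells, fell in Ag+Costim (-1.53 ± 0.31, FDR = 0.00490), as did Foxp1, known to oppose it (-2.21 ± 0.45, FDR = 0.00471). Tbx21, the gene of T-bet, which is known to act on Il2rb, stood at 57.9, 133, 53.6, 66.5 and 252 CPM in Naive and between 306 and 371 CPM in Ag+Costim (1.68 ± 0.48, FDR = 0.0161). In Ag it stood at 88.9, 281, 234, 110 and 291 CPM, with Ag 1 and Ag 4 again the lowest.

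Of 12 other receptor chains of these families, 9 were tested and none passed in Ag vs Naive. In Ag+Costim vs Naive, 1 was higher and 3 lower. Il12rb1, which pairs for IL-12 and IL-23, averaged 35.0 CPM in Ag+Costim and 14.6 CPM in Naive (1.40 ± 0.43, FDR = 0.0216), a call lost without Naive 1, Naive 3 or Naive 4 (highest FDR = 0.0589). Il23r fell from 5.29 to 0.261 CPM (-4.15 ± 0.97, FDR = 0.00832), and Il27ra, which pairs with gp130 for IL-27, from 343 to 148 CPM (-1.05 ± 0.29, FDR = 0.0143). The Il27ra call was lost without Ag+Costim 4 (FDR = 0.0563).

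Across the 15 libraries, the genes whose log2(CPM + 1) followed each receptor gene most closely were sought in the 11319 genes that averaged 5 CPM or more. The 3 groups and shared depth of these libraries enter each coefficient. For Il7r they were Stx2 and Tsc22d3 (Pearson r = 0.989 for each), and for Il6ra Ip6k1 (0.994) and Thada (0.993). Il2ra was followed by Jpt2 (0.979) and Tubb3 (0.976), Il2rb by Cdc25b (0.977) and Zfp41 (0.974), and Il6st by Gbp9 and Gramd4 (0.987 for each). For Il2rg the genes were Atp6ap1 (0.987) and Laptm4a (0.980), for Il4ra Mta3 (0.975), and for Il21r Cd6 (0.977) and Tmem43 (0.967). Il15ra had the loosest match, Gm39323 (0.785) and Snx25 (0.766). Among the 9 genes themselves, Il6ra and Il6st had a coefficient of 0.980, Il7r and Il6ra 0.964, and Il7r and Il2rb -0.906.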

How the data were processed

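Libraries were made from sorted CD8+ T cells with a SMART-Seq v4 and Nextera XT kit. The authors aligned reads with HISAT2 2.1.0 to mm10 and quantified them with StringTie 2.1.0, per the labels and methods, and used DESeq2 1.30.1. The gene and transcript tables hold raw counts, which the authors deposited as StringTie estimates in whole numbers. The deposited FPKM table holds StringTie FPKM per transcript, and its columns for Ag 1 and Naive 5 are identical, so it was used without them. Per the file headers, the core facility table gives the count of reads, the percent aligned, the lane and an input amount. The labels give reads of 50 bases.

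Gene entries were matched to GENCODE M21 (55536 of 81881), and entries named by a number alone (0.0818% of counts) were left out. CPM is per 1000000 matched counts. TPM was computed from transcript counts and annotated lengths. Libraries of a group differed beyond sampling noise (chi-square over degrees of freedom 5.62 or more), so none was counted as a duplicate. Counts were tested in R 4.3.3 with edgeR 4.0.16 (filterByExpr, 17366 genes, TMM, quasi-likelihood with 1 coefficient per group over 15 libraries, robust), two-sided, with a Benjamini-Hochberg FDR threshold of 0.05 over all genes. Transcript shares were tested with diffSpliceDGE, calling a gene at an FDR of 0.05 with a transcript at an FDR of 0.05 whose share changed by at least 0.1. The scripts were tested on simulated data. Alternatives were DESeq2 1.42.0, library totals, no filter, the 10 libraries compared, lane, replicate block and leaving out libraries.

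Members and gene lists were chosen with earlier results of these data known. In each list and comparison the text names the 2 called genes with the largest and the 2 with the smallest log2 fold change, provided that the group with more expression averaged 5 CPM or above, plus Jak1, Jak3, Stat5a, Stat5b, Cish and Socs1. It also names the leading transcript of each member, any called transcript and, for each member, the 2 genes most correlated with it, of which 1 is not reported here. Il2, Il15, Ebi3, Osm, Il6ra-201, Il7r-201, Il6st-201, Il15ra-205 and Il15ra-210 were added after their values were seen. So were the Ag+Costim results of Pim1 and Myc. The labels do not tie samples to animals, so p-values measure the spread between these samples. Floors of 3 counts cover counting error only and treat every count of a gene as able to tell its transcripts apart. A search for a protein motif was not run, as no protein sequences were used here.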

Additional observations from a re-analysis of the deposited data

Results flagged for a closer look

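Of 45 groups of 5 libraries examined (27 of receptor levels and 18 of summed markers), 7 held a library far from the others, where chance gives about 1 in 20 groups, or 2.25. Within Naive, Naive 5 stood apart for Il7r, at 235 CPM where the others ranged from 644 to 783 CPM. It also stood apart for Il2ra, at 36.6 CPM against 5.93 to 13.1 CPM, and for Il2rb, at 1006 CPM against 438 to 537 CPM. In each of these genes it lay on the side of the Ag+Costim libraries. The myeloid markers of Naive 5 summed to 606 CPM against 14.0 to 128 CPM in the other Naive libraries, and their part in the receptor values was not tested.

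In Ag 3, the myeloid markers summed to 161 CPM against 60.7 to 80.04 CPM in the other Ag libraries, and the erythroid markers to 912 CPM against 9.94 to 124 CPM. The B cell markers of Ag+Costim 4 summed to 25.9 CPM, below the 41.2 to 47.3 CPM of the other Ag+Costim libraries.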

How the results depend on the processing

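Counts of calls are given in the order members and pathway genes. Ag vs Naive gave 4 and 7, with 5 and 14 under DESeq2, 2 and 4 with no filter, 0 and 0 in the 10 libraries alone, 0 and 0 with lane as a term, 8 and 24 without Ag 1 and Naive 5 together, and 2 to 6 and 2 to 19 over single libraries left out. Ag+Costim vs Ag gave 0 and 0, with 1 and 9 under DESeq2 and 0 to 1 and 0 to 11 over single libraries. Ag+Costim vs Naive gave 9 and 28, with 4 and 7 with lane as a term, 15 pathway genes with no filter, and 6 to 9 and 18 to 35 over single libraries. Members with a called transcript numbered 1, 1 and 0, with 0 in the 10 libraries alone for Ag vs Naive and Ag+Costim vs Ag, 0 without Ag 1 and Naive 5 for Ag+Costim vs Ag, and 1 to 2, 0 to 1 and 0 to 1 over single libraries. In Ag vs Naive, 1.42% to 21.5% of all genes passed over the single libraries left out, and 17.9% under DESeq2. Shares of all genes are not given here for no filter, the 10 libraries alone, Ag 1 and Naive 5 left out together, or the replicate block. The counts under those settings are therefore not results about the members. The FPKM table, read without Ag 1, put 4 of 9 members at the same place in the Ag order. The causes were not tested.

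Recorded sex followed the replicate number in each group, with 1, 2 and 5 female and 3 and 4 male. The part of sex in the receptor values was not tested. Deviations of same-numbered libraries correlated at -0.31 to 0.57, -0.34 to 0.17 and -0.21 to 0.19 in the 3 comparisons. Only 2, 1 and 2 of 5 correlated best with their own number, so the numbers did not pair the samples throughout. With the replicate number as a block, 4, 0 and 8 members were called. Il21r lost its call in Ag vs Naive and Il6ra gained one, Il2rg lost its call in Ag+Costim vs Naive, and the Il4ra transcript call in Ag+Costim vs Ag was lost (0 members).

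Several small differences that never passed changed sign. With no filter, which moved the median of all genes by 0.27 in Ag+Costim vs Ag (and by -0.11 and 0.17 in Ag vs Naive and Ag+Costim vs Naive), Il2rg gave 0.10, Il4ra 0.11, Il21r 0.16 and Jak1 0.23 there, and Stat5b 0.10 against Naive. Library totals moved the median by -0.15 in Ag+Costim vs Naive. Of all genes called in Ag+Costim vs Naive, 47.0% were higher, with 57.9% under no filter, 37.2% under library totals and 41.6% under DESeq2. Without Ag 1 and Naive 5, Il4ra gave 0.060, Il21r 0.049 and Jak1 0.081 in Ag+Costim vs Ag and Stat5b 0.092 against Naive. Jak1 gave 0.014 with lane as a term and 0.028 within lane 2. Over single libraries, sign changes ranged in Ag+Costim vs Ag over -0.15 to 0.070 for Il21r, -0.034 to 0.26 for Il15ra, -0.32 to 0.027 for Il4ra, -0.089 to 0.42 for Cish and -0.095 to 0.12 for Jak1, over -0.037 to 0.25 for Jak3 in Ag vs Naive, and over -0.13 to 0.054 for Stat5b in Ag+Costim vs Naive.

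Depth limits Il2ra and Il15ra most, with 30 and 75 counts in their lowest libraries, and transcripts of genes with few counts.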

Other observations

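Within the Ag group, 7 of the 9 receptor genes and some pathway genes set Ag 1 and Ag 4 apart from the other 3 libraries, whereas Il2rb and Il15ra did not. Ag 1 and Ag 4 were the 2 highest Ag libraries for Il7r, Il6ra, Il6st, Il4ra, Il21r, Il2rg, Jak1, Socs3, Bcl2, Foxo1 and Foxp1, and the 2 lowest for Il2ra, Il12rb1 and Tbx21. Their summed CD8 T cell markers were 6575 and 6493 CPM, beside 3354 to 4829 CPM in Ag 2, Ag 3 and Ag 5. The input amount listed for Ag 1 and Ag 4 was 10, as for most libraries, and was 1.4, 9.4 and 1.8 for Ag 2, Ag 3 and Ag 5, with no unit given. These genes were picked after their values were seen, and no test was made on the division. The share of all genes that set Ag 1 and Ag 4 apart was not counted. Over genes with enough counts, chi-square over degrees of freedom was 8.70 between Ag 1 and Ag 4. It was 101 to 249 between either of them and Ag 2, Ag 3 or Ag 5. Ag 3 differed from Ag 2 (109) and Ag 5 (138) about as much as from Ag 1 (101) and Ag 4 (120). These values therefore do not show whether the division held across all genes.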
